A study of Mus musculus with 42 samples.

Results

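Chronic hypobaric hypoxia was compared with chronic normobaric hypoxia in the mouse retina, using 12 of the 42 retinas sequenced in the series, which were chosen by their group label and by no measured value. The 14-07w-JFJ group held 6 C57BL/6J mice that spent 7 weeks at the Jungfraujoch research station at 3450 m, where thin air offers about the oxygen of 14% O2, were 9 weeks of age at the start and 16 weeks at the end, and had 12 h of light and 12 h of darkness a day. The 14-11w-ZH group held 6 C57BL/6J mice that breathed 14% O2 at normal pressure for 11 weeks in chambers in Zurich (400 m in the labels), were 9.5 weeks of age at the start and 20.5 weeks at the end, and had 14 h of light and 10 h of darkness. None carried a transgene, and 1 retina was sequenced per mouse, so that the 6 replicates of a group are 6 animals. The pressure therefore cannot be told apart from the length of exposure, age, day length or site, and the label codes of the libraries also run in a separate series for each group. Sex was also unequal between the groups, by the Y-linked transcripts described below. The JFJ retinas were taken out without a microscope, as the study's text states. Whole retina was measured, and fewer cells of a type cannot be told apart from less RNA per cell.

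The retina is among the most oxygen-hungry tissues, and most of that oxygen is spent by photoreceptors. Their outer side is fed by the choroid through the pigment epithelium, a pigmented cell layer that also recycles vitamin A for vision, and the inner retina is fed by its own vessels of endothelium and pericytes. When oxygen falls, hypoxia-inducible factors (HIF) escape degradation and switch on genes of glycolysis, vessel growth and iron uptake. Air at altitude and air diluted with nitrogen can offer the same oxygen while differing in pressure, and the pair of chronic groups was set up to ask whether the retina responds to that difference.

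Expression is given as FPKM (fragments per kilobase of transcript, scaled to the fragments mapped in a library). Reads recovered from the deposited normalized counts numbered 13986520 to 19001703 per library in 14-07w-JFJ and 17146813 to 33595709 in the 5 of 6 libraries of 14-11w-ZH where they could be recovered. All 12 libraries were retina: summed over 20 rod genes, the 14-07w-JFJ libraries held 53600 to 58872 FPKM and the 14-11w-ZH libraries 55820 to 59811 FPKM. Other eye tissues entered unevenly. The 15 melanosome genes summed to 25.1 to 645 FPKM (median 459) in 14-07w-JFJ and to 17.8 to 125 FPKM (median 51.8) in 14-11w-ZH, and JFJ replicates 1, 2, 3 and 5 lay above every ZH library, whereas JFJ replicates 4 and 6 lay within the ZH range. Those 4 libraries are called pigment-rich here. *Rpe65*, the isomerase that defines pigment epithelium, had 3.03 to 53.7 FPKM (median 34.3) in 14-07w-JFJ and 0.252 to 4.63 FPKM (median 1.42) in 14-11w-ZH. Lens crystallins were abundant in JFJ replicate 5 and ZH replicates 3 and 4 only, the lens-rich libraries. The Y-linked transcripts were at 0 FPKM in JFJ replicates 4, 5 and 6 and present in the other 3 JFJ mice and in all 6 ZH mice, where they summed to 113 to 141 FPKM. Both JFJ libraries with low melanosome genes are thus also libraries without Y-linked transcripts. The 19 pigment epithelium genes did not split as the melanosome genes did. Their mean log2(FPKM + 0.1) was 2.89 in JFJ replicate 6 and 2.48 in JFJ replicate 4, beside 1.76 to 2.68 in 14-11w-ZH. Fits without the pigment-rich libraries thus still held a JFJ library above every ZH library in the mean of these genes.

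**Figure D1:**
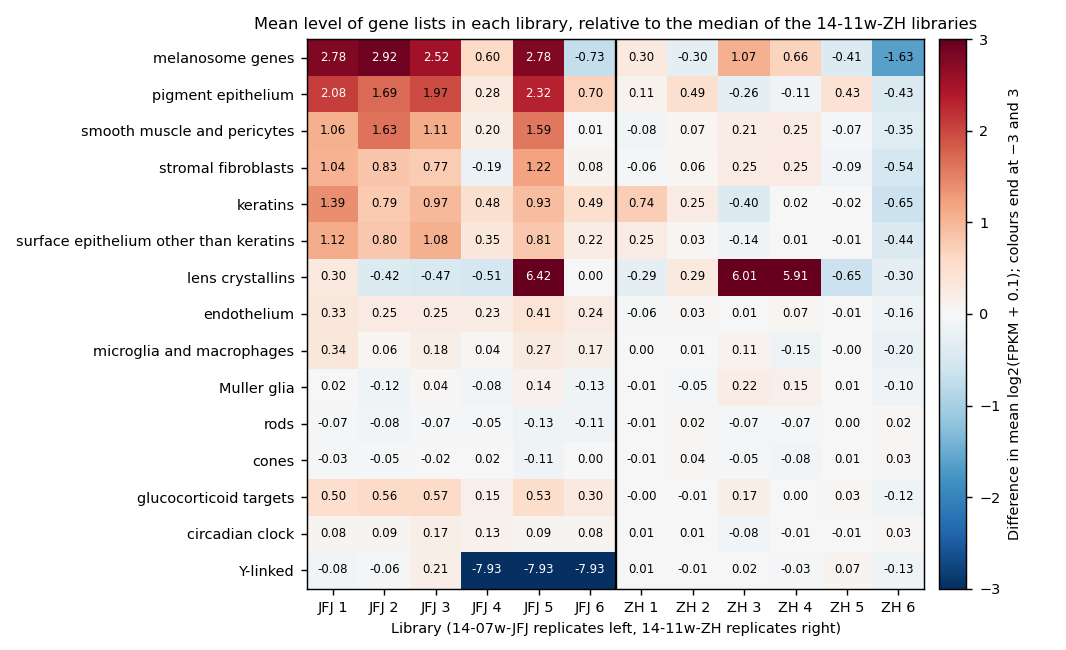
Mean level of 15 gene lists in each of the 12 libraries, as the difference in mean log2(FPKM + 0.1) from the median of the 14-11w-ZH libraries, with 14-07w-JFJ replicates 1 to 6 on the left and 14-11w-ZH replicates 1 to 6 on the right. Melanosome, pigment epithelium, muscle and fibroblast genes are raised most in JFJ replicates 1, 2, 3 and 5. Endothelium, glucocorticoid target and clock genes lie above the 14-11w-ZH median in all 6 JFJ libraries. So do pigment epithelium, muscle, keratin, other surface epithelium and microglia genes.

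Few genes separated the groups by 2-fold. Of 17016 genes tested with limma, 40 (0.235%) passed an adjusted p of 0.05 together with a 2-fold change, and all 40 were higher in 14-07w-JFJ. None was lower by that rule, although 2788 genes (16.4%) had an unadjusted p under 0.05. On recovered reads edgeR called 42 genes, 30 of them among the 40. At any size of change, 263 genes (1.55%) passed, 183 of them higher (1.08%) and 80 lower (0.47%) in 14-07w-JFJ, and 223 of the 263 moved by less than 2-fold. The split of higher and lower genes differed between settings: it was 147 and 144 after median-of-ratios scaling, 220 and 188 on the deposited normalized counts and 131 and 125 with edgeR. Of these genes 227 of 291, 231 of 408 and 171 of 256, in the same order, were among the 263. The median gene lay 0.02 above 0 on the log2 scale in the FPKM values, so more genes had a positive than a negative fold. Counts within the gene lists below are to be read beside these shares and this median over all genes. The 6 mice of one group did not overlap the 6 of the other for 227 genes in the higher direction (1.33% of all tested) and 128 in the lower direction (0.752%). Of the 40 genes with a 2-fold change, 20 showed no overlap, 19 had a mean of at least 1 FPKM, and 16 followed *Rpe65* across the 42 retinas at a Pearson correlation of at least 0.5. With single mice left out the 40 became 17, 16, 23, 77, 37 and 96 without JFJ replicates 1 to 6 and 23, 16, 31, 25, 15 and 15 without ZH replicates 1 to 6. In all 12 of those fits the 263 genes kept their sign, and 60 of them, with 13 of the 40, passed every time. These fits share mice with the fit that picked the 263 genes, so a kept sign is not an independent test. Among the genes described below, *Fgf2* passed in 0 of the 12 fits and *Cdh5* and *Krt80* in 1. *Lrat*, *Slc6a20a*, *Muc5ac*, *Stat3*, *Hif1a*, *Bst2*, *Cdkn1a*, *Cd68*, *Hspb1* and *Hdc* passed in 2.

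A pigment epithelium gene had the largest fold of the called genes. *Lrat*, which esterifies retinol for the visual cycle, had 0.281 to 7.95 FPKM (median 4.098) in 14-07w-JFJ and 0.0327 to 0.531 FPKM (median 0.115) in 14-11w-ZH. Its log2 fold change was 3.42 ± 0.75 (SE), with an adjusted p of 0.04998, and the low JFJ mice were replicates 4 and 6. *Slc6a20a*, an amino acid transporter, changed by 2.55 ± 0.55 (adjusted p 0.041) and *Gpr143*, the ocular albinism receptor of melanosomes, by 2.36 ± 0.49 (adjusted p 0.035). Of the 19 pigment epithelium genes tested, 3 were called higher and none lower, with a median log2 fold change of 1.09 against 0.02 over all genes. Of the 15 melanosome genes, 1 was called, at a median of 2.36. Without the pigment-rich libraries these medians were 0.10 and -0.05, and the log2 fold change of *Lrat* was 1.44 (adjusted p 0.34). The monocarboxylate carrier *Slc16a8* and the visual cycle gene *Rpe65* did not pass, at 2.79 (adjusted p 0.064) and 3.76 (adjusted p 0.066). *Rpe65* belongs with haemoglobins and crystallins to a class left out of all counts.

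Smooth muscle and stromal genes followed the same 4 libraries. The 9 genes that the study's text names for higher expression at low pressure cover small proteoglycans (*Lum*, *Dcn*), contractile proteins (*Myh11*, *Tagln*, *Tpm2*) and secreted or membrane proteins (*Angptl2*, *C2*, *Gpnmb*, *Mdk*), and the study picked them on these libraries. None of the 9 passed with all 12 mice in the 2-group fit, whereas the study, with edgeR, counted them as higher at both durations. Of the 9, 6 passed without JFJ replicate 6 (*Lum*, *Angptl2*, *C2*, *Mdk*, *Myh11* and *Tagln*), 5 with all 7 groups in 1 fit, and 3 with the Y-linked level as a term (*Lum*, *Angptl2* and *Myh11*, at adjusted p of 0.02, 0.027 and 0.037). After 48 h (14-48h-JFJ over 14-48h-ZH) 7 of the 9 passed upward, and the median log2 fold change of the 9 was 1.83. *Dcn*, encoding decorin, a proteoglycan that binds collagen, had 0.756 to 23.01 FPKM (median 12.4) in 14-07w-JFJ and 0.353 to 2.596 FPKM (median 1.56) in 14-11w-ZH. Its values of 0.756 and 1.42 FPKM in JFJ replicates 4 and 6 fell among the ZH mice, and its log2 fold change was 2.34 ± 0.91 (adjusted p 0.24). *Myh11*, the smooth muscle myosin heavy chain, had 0.394 to 8.96 FPKM (median 4.34) in 14-07w-JFJ and 0.207 to 0.546 FPKM (median 0.378) in 14-11w-ZH, a log2 fold change of 2.53 ± 0.71 (adjusted p 0.1). Over the 9 genes the median log2 fold change was 1.85 with all mice and 0.08 without the pigment-rich libraries, and *Lum*, *Dcn* and *Gpnmb* then turned negative, at -0.20, -0.20 and -0.42. All 9 followed *Rpe65* at a correlation of at least 0.5 over the 42 retinas, from 0.54 (*Dcn*) to 0.67 (*Mdk*). The paper states that genes with a correlation of 0.5 or more were left out. It describes the genes it kept, these 9 among them, as not correlated with *Rpe65*. Neither the source of this difference nor the part of admixed tissue in the folds was tested.

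Among 19 smooth muscle and pericyte genes 3 rose and none fell, with a median of 0.56 with all mice and 0.13 without the pigment-rich libraries. *Des*, the intermediate filament desmin, changed by 1.35 ± 0.29 (adjusted p 0.032) and was the one called at 2-fold. *Rgs5*, a marker of pericytes, had 26.3 to 29.7 FPKM (median 27.4) in 14-07w-JFJ and 19.2 to 24.5 FPKM (median 21.02) in 14-11w-ZH. The groups did not overlap in *Rgs5* (log2 fold change 0.37 ± 0.06, adjusted p 0.0082), and the fold was 0.37 (adjusted p 0.091) without the pigment-rich libraries. *Mylk*, the myosin light chain kinase, rose by 0.34 (adjusted p 0.032). Without the pigment-rich libraries *Des* had 0.51 (adjusted p 0.47) and *Mylk* 0.19 (adjusted p 0.22). The 12 fibroblast genes held none that passed (median 0.29), and of 42 collagen chains only *Col6a1* passed, with 36.5 to 40.8 FPKM (median 37.1) in 14-07w-JFJ against 41.9 to 46.3 FPKM (median 43.9) in 14-11w-ZH, a log2 fold change of -0.22 ± 0.04 (adjusted p 0.018).

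**Figure D2:**
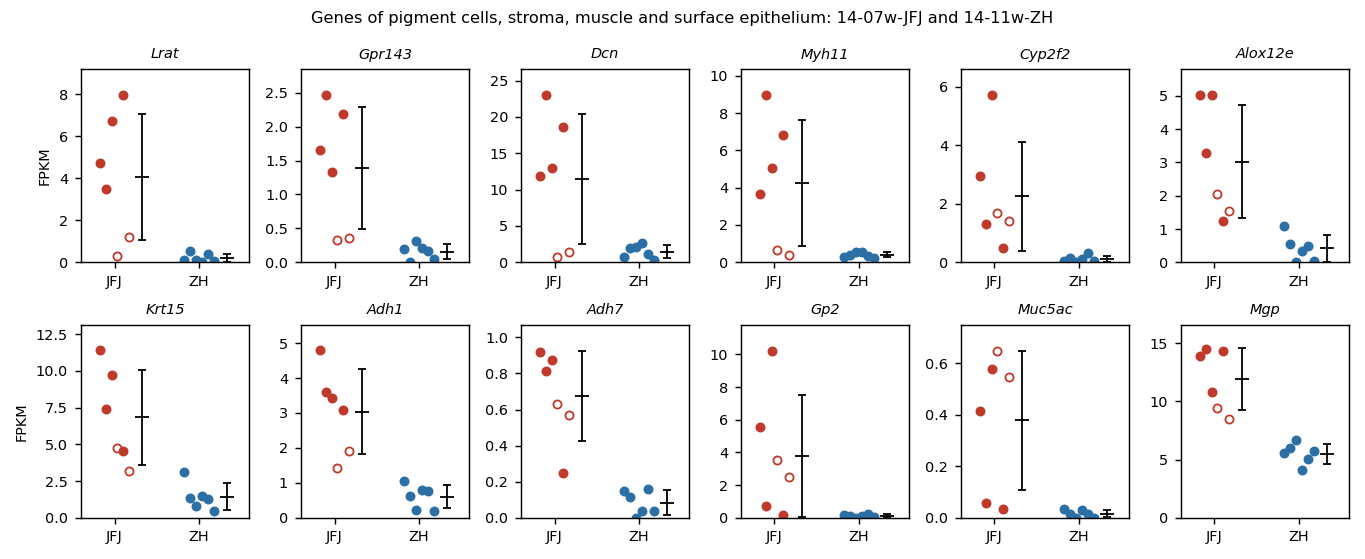
FPKM of 12 genes of pigment cells, stroma, muscle and surface epithelium in each mouse, 14-07w-JFJ (red) left of 14-11w-ZH (blue), with the mean and SD of 6 mice beside each group and the 2 JFJ mice outside the pigment-rich set drawn open. The open points lie near the blue ones for *Lrat*, *Gpr143*, *Dcn* and *Myh11* and above them for *Cyp2f2*, *Krt15*, *Adh1*, *Muc5ac* and *Mgp*.

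Genes of surface epithelium gave other large folds. *Cyp2f2*, a cytochrome P450 of airway and other epithelia, had 0.492 to 5.71 FPKM (median 1.54) in 14-07w-JFJ and 0 to 0.306 FPKM (median 0.0802) in 14-11w-ZH. The groups did not overlap, the log2 fold change was 3.27 ± 0.47 (adjusted p 0.0065), and it was 3.09 (adjusted p 0.01) without the pigment-rich libraries. *Alox12e*, an epidermal lipoxygenase, had 1.23 to 5.02 FPKM (median 2.67) in 14-07w-JFJ and 0 to 1.096 FPKM (median 0.422) in 14-11w-ZH (log2 fold change 2.84 ± 0.62, adjusted p 0.047). *Krt15*, a basal keratin of cornea and conjunctiva, had 3.21 to 11.4 FPKM (median 6.07) in 14-07w-JFJ and 0.487 to 3.13 FPKM (median 1.32) in 14-11w-ZH (log2 fold change 2.25 ± 0.41, adjusted p 0.03). In each of these 3 genes the lowest JFJ mouse lay above the highest ZH mouse. *Krt8* and *Krt80* also rose, by 1.89 (adjusted p 0.035) and 1.57 (adjusted p 0.048), with overlapping mice. Without the pigment-rich libraries *Alox12e* had 2.30 (adjusted p 0.31), *Krt15* 1.59 (adjusted p 0.23), *Krt8* 0.67 (adjusted p 0.42) and *Krt80* 1.35 (adjusted p 0.33), and none of the 4 passed. The correlation with *Rpe65* over the 42 retinas was 0.87 for *Krt8*, which is also in the pigment epithelium list, and 0.11 to 0.25 for the other 4 genes, and with the *Rpe65* level as a term *Alox12e* had 1.22 and *Krt15* 1.32. Of 18 keratins tested, 3 were called higher and 17 had a positive fold (median 1.22), and of 33 other surface epithelium genes 4 were called (median 0.54), and 2 and 7 genes of these lists followed *Rpe65* at a correlation of at least 0.5. Both medians stayed above 0 without the pigment-rich libraries, at 0.71 and 0.15. The keratins summed to 50.8 to 87.3 FPKM in 14-07w-JFJ and to 39.9 to 62.0 FPKM in 14-11w-ZH, and the part of surface tissue carried with the retina was not tested.

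The mucin gene *Muc5ac*, made by goblet cells of the conjunctiva, ran in another order. Its values were 0.417, 0.579, 0.647 and 0.546 FPKM in JFJ replicates 1, 3, 4 and 6, 0.0557 and 0.0344 FPKM in JFJ replicates 2 and 5, and 0 to 0.0360 FPKM (median 0.0152) in 14-11w-ZH. The log2 fold change was 1.76 ± 0.41 (adjusted p 0.041), and 2.59 (adjusted p 0.0015) without the pigment-rich libraries. *Gp2*, a membrane glycoprotein of exocrine and mucosal epithelium, was high in the same 4 mice (log2 fold change 3.44 ± 0.79, adjusted p 0.059). It passed without the pigment-rich libraries, at 3.91 (adjusted p 7.5e-04), and without the lens-rich libraries, at 3.82 (adjusted p 0.037). JFJ replicates 2 and 5 are pigment-rich, so the fit without the pigment-rich libraries left out the low JFJ mice of both genes. Of the 9 goblet and gland genes tested, *Muc5ac* alone was called.

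Alcohol dehydrogenases rose with the surface genes. *Adh1*, which oxidises ethanol and retinol, had 1.44 to 4.79 FPKM (median 3.26) in 14-07w-JFJ and 0.203 to 1.05 FPKM (median 0.694) in 14-11w-ZH, without overlap (log2 fold change 2.22 ± 0.36, adjusted p 0.012). *Adh7*, the retinol-oxidising enzyme of stomach and cornea, had 0.251 to 0.919 FPKM (median 0.722) in 14-07w-JFJ and 0 to 0.162 FPKM (median 0.0785) in 14-11w-ZH, also without overlap (log2 fold change 2.08 ± 0.30, adjusted p 0.0037). *Adh6a* changed by 1.74 (adjusted p 0.038) and the aldo-keto reductase *Akr1b7* by 1.96 (adjusted p 0.024). *Adh1*, *Adh7*, *Adh6a* and *Lrat* were the 4 called genes of 27 alcohol dehydrogenase and retinoic acid genes, whose median was 0.07. Without the pigment-rich libraries *Adh1* had 1.49 (adjusted p 0.2), *Adh7* 2.01 (adjusted p 0.053), *Adh6a* 1.45 (adjusted p 0.076) and *Akr1b7* 0.96 (adjusted p 0.33), and none of the 4 passed.

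Vessel genes were shifted a little in all 6 JFJ mice. The mean log2(FPKM + 0.1) of 20 endothelial genes was 2.58 to 2.76 in 14-07w-JFJ libraries and 2.19 to 2.42 in 14-11w-ZH libraries, without overlap, and 18 of the 20 had a positive fold (median 0.25, and 0.23 without the pigment-rich libraries). *Ly6c1*, a surface protein of capillary endothelium, had 10.2 to 14.6 FPKM (median 13.8) in 14-07w-JFJ and 6.83 to 9.597 FPKM (median 7.76) in 14-11w-ZH. Its log2 fold change was 0.74 ± 0.10 (adjusted p 0.0019) and 0.86 (adjusted p 0.01) without the pigment-rich libraries. *Cdh5*, the endothelial cadherin, rose by 0.61 (adjusted p 0.04996). *Flt1*, the VEGF receptor that acts largely as a trap, had 28.01 to 32.1 FPKM (median 30.4) in 14-07w-JFJ and 22.5 to 26.8 FPKM (median 25.6) in 14-11w-ZH (log2 fold change 0.27 ± 0.05, adjusted p 0.017). *Kdr*, the main signalling VEGF receptor, had -0.21 and did not pass (adjusted p 0.055). In *Flt1* the lowest JFJ mouse lay above every ZH mouse. Without the pigment-rich libraries *Flt1* had 0.32 (adjusted p 0.08) and *Cdh5* 0.47 (adjusted p 0.37).

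Of 34 angiogenic factors and receptors, *Flt1* and *Fgf2* passed and 29 had a positive fold (median 0.22). *Fgf2*, a growth factor that protects photoreceptors, had 24.6 to 29.3 FPKM (median 25.7) in 14-07w-JFJ and 20.8 to 24.4 FPKM (median 22.2) in 14-11w-ZH (log2 fold change 0.23 ± 0.06, adjusted p 0.04975). With a mouse left out it passed in 0 of 12 fits. *Vegfa* had 165 to 195 FPKM (median 189) in 14-07w-JFJ and 168 to 199 FPKM (median 193) in 14-11w-ZH, with overlapping mice (log2 fold change -0.03 ± 0.05, adjusted p 0.84). *Mgp*, the matrix Gla protein that keeps vessel walls free of calcium, was called, with 8.51 to 14.5 FPKM (median 12.3) in 14-07w-JFJ and 4.12 to 6.65 FPKM (median 5.63) in 14-11w-ZH and no overlap. Its log2 fold change was 1.08 ± 0.14 (adjusted p 0.0019), and 0.71 (adjusted p 0.073) without the pigment-rich libraries. *Sema3c*, a secreted guidance cue, had 1.398 to 5.25 FPKM (median 3.32) in 14-07w-JFJ and 0.632 to 1.21 FPKM (median 1.004) in 14-11w-ZH (log2 fold change 1.55 ± 0.28, adjusted p 0.018). It followed *Rpe65* at a correlation of 0.93 over the 42 retinas, and had 0.67 (adjusted p 0.25) without the pigment-rich libraries. *St3gal6*, a sialyltransferase, was called at 1.01 ± 0.20 (adjusted p 0.029) and had 0.32 without the pigment-rich libraries. *Mgp* and *St3gal6* also followed *Rpe65*, at correlations of 0.60 and 0.77.

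Several of the smallest p-values belonged to photoreceptor genes that moved by less than 2-fold. *Pcdh15*, *Fscn2*, *Hkdc1*, *Gckr*, *Txnip*, *Hif1a*, *Vegfa*, *Mt2*, *Cdkn1a* and *Rpl10-ps3*, and the parent genes of the near-identical copies, were singled out after their values were seen. *Pcdh15*, the cadherin of photoreceptor calyceal processes and of hair cell tip links, had 51.5 to 62.4 FPKM (median 60.1) in 14-07w-JFJ and 31.8 to 39.2 FPKM (median 34.7) in 14-11w-ZH. The lowest JFJ mouse exceeded the highest ZH mouse, and the log2 fold change of 0.74 ± 0.06 had the smallest adjusted p of all genes, 5.5e-06. *Nr2e3*, the nuclear receptor that represses cone genes in rods, fell, with 386 to 436 FPKM (median 415) in 14-07w-JFJ and 527 to 617 FPKM (median 554) in 14-11w-ZH. No mouse overlapped in *Nr2e3* (log2 fold change -0.44 ± 0.04, adjusted p 1.1e-04). *Arr3*, the arrestin of cones, rose, with 438 to 585 FPKM (median 501) in 14-07w-JFJ and 318 to 399.8 FPKM (median 345) in 14-11w-ZH (log2 fold change 0.53 ± 0.06, adjusted p 8.9e-04). *Fscn2*, an actin-bundling protein of photoreceptors, fell, with 137 to 149 FPKM (median 144) in 14-07w-JFJ and 170.3 to 188 FPKM (median 172) in 14-11w-ZH (log2 fold change -0.30 ± 0.04, adjusted p 6.0e-04).

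Most other photoreceptor genes did not pass. Of 20 rod genes only *Nr2e3* passed, and 16 had a small negative fold (median -0.05). Of 14 cone genes only *Arr3* passed, and 10 had a negative fold (median -0.07). The cone transducin *Gnat2* had 132 to 152 FPKM (median 142) in 14-07w-JFJ and 153 to 169 FPKM (median 158) in 14-11w-ZH, with a log2 fold change of -0.16 ± 0.04 and an adjusted p of 0.053. None of 18 bipolar, 22 amacrine and horizontal or 20 ganglion cell genes passed, with medians of -0.02, -0.05 and -0.06. With the *Rpe65* level as a term, 4 genes passed in the whole table, and they were *Pcdh15* (0.73), *Arr3* (0.69), *Nr2e3* (-0.50) and *Fscn2* (-0.39), each with an adjusted p of 0.0168. These 4 genes also passed in each of the 12 fits with a mouse left out.

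A pair of genes that handle glucose fell with them. *Hkdc1*, a hexokinase of low activity, had 3.96 to 5.11 FPKM (median 4.58) in 14-07w-JFJ and 6.54 to 8.597 FPKM (median 7.91) in 14-11w-ZH, without overlap (log2 fold change -0.76 ± 0.09, adjusted p 6.0e-04). *Gckr*, which holds glucokinase inactive in liver, had 40.5 to 53.7 FPKM (median 51.8) in 14-07w-JFJ and 62.9 to 77.8 FPKM (median 71.8) in 14-11w-ZH, again without overlap (log2 fold change -0.51 ± 0.07, adjusted p 0.0019). *Txnip*, a thioredoxin-binding brake on glucose uptake, rose, with 9.15 to 13.5 FPKM (median 11.8) in 14-07w-JFJ and 6.28 to 9.09 FPKM (median 7.299) in 14-11w-ZH (log2 fold change 0.62 ± 0.10, adjusted p 0.011). *Hkdc1* and *Gckr* held at -0.78 (adjusted p 0.02) and -0.40 (adjusted p 0.03) without the pigment-rich libraries, and *Txnip* had 0.56 (adjusted p 0.14). None of the 23 glycolysis genes passed (median 0.03).

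**Figure D3:**
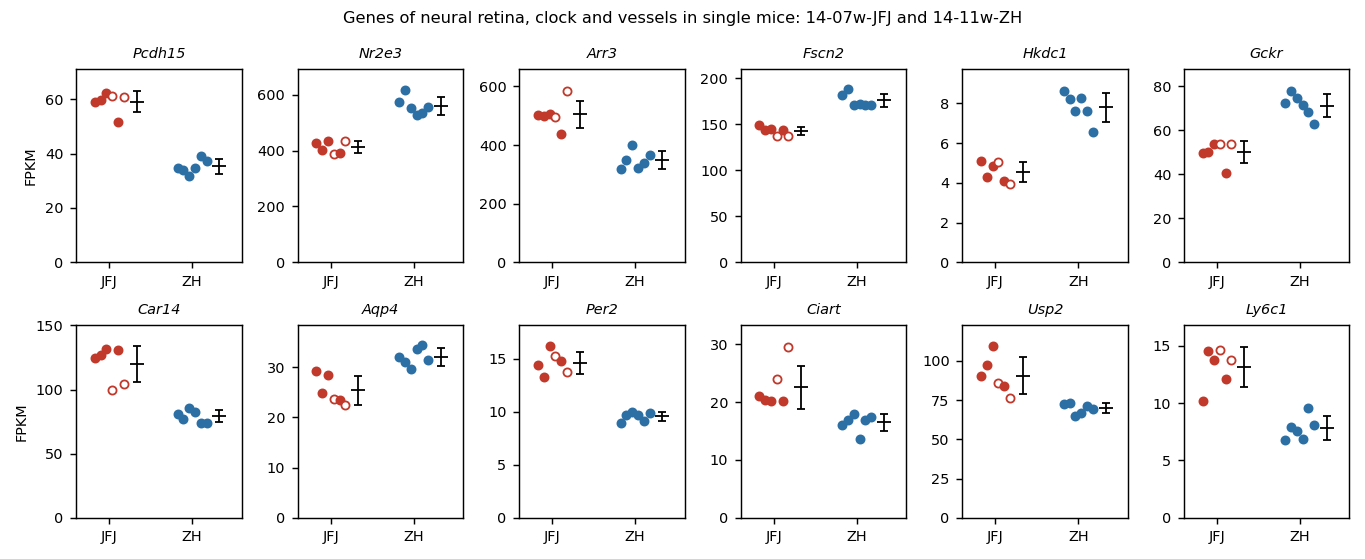
FPKM of 12 genes of neural retina, clock and vessels in each mouse, 14-07w-JFJ (red) left of 14-11w-ZH (blue), with the mean and SD of 6 mice beside each group and the 2 JFJ mice outside the pigment-rich set drawn open. In all 12 panels the groups do not overlap, with *Nr2e3*, *Fscn2*, *Hkdc1*, *Gckr* and *Aqp4* lower and the others higher in 14-07w-JFJ.

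Müller glia, the radial glia that carry water, ions and acid out of the retina, changed in 4 of 20 genes. *Car14*, a membrane carbonic anhydrase, rose, with 99.8 to 132 FPKM (median 126) in 14-07w-JFJ and 74.2 to 85.7 FPKM (median 78.9) in 14-11w-ZH (log2 fold change 0.59 ± 0.07, adjusted p 6.0e-04). *Car2*, the cytosolic carbonic anhydrase, fell, with 371 to 402 FPKM (median 387) in 14-07w-JFJ and 419.9 to 462 FPKM (median 451) in 14-11w-ZH (log2 fold change -0.20 ± 0.03, adjusted p 0.011). *Aqp4*, the water channel of the Müller endfoot, fell, with 22.4 to 29.3 FPKM (median 24.3) in 14-07w-JFJ and 29.6 to 34.3 FPKM (median 31.7) in 14-11w-ZH (log2 fold change -0.34 ± 0.07, adjusted p 0.022). The thyroid hormone-binding crystallin *Crym* fell by 0.35 on the log2 scale (adjusted p 0.011). The 6 and 6 mice did not overlap in any of these 4 genes. *Car14* is made by pigment epithelium as well and was lower in JFJ replicates 4 and 6, at 99.8 and 105 FPKM, than in the pigment-rich libraries. The median of the 20 Müller genes was -0.05.

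Stress and immune genes moved little. Of 22 reactive gliosis genes *Stat3* and *Fgf2* passed, and *Stat3*, the transcription factor of gliosis, had 41.1 to 47.9 FPKM (median 44.02) in 14-07w-JFJ and 36.5 to 40.3 FPKM (median 38.6) in 14-11w-ZH (log2 fold change 0.19 ± 0.04, adjusted p 0.038). With a mouse left out *Stat3* passed in 2 of 12 fits and *Fgf2* in 0. Of 21 complement genes *C4b* alone passed, with 6.93 to 13.5 FPKM (median 8.26) in 14-07w-JFJ and 4.95 to 5.83 FPKM (median 5.55) in 14-11w-ZH (log2 fold change 0.67 ± 0.13, adjusted p 0.022). *Cd68*, a lysosomal marker of macrophages, was the only one of 21 microglia and macrophage genes to pass (log2 fold change 0.82 ± 0.19, adjusted p 0.04). The medians of the 3 lists were 0.12, 0.13 and 0.14, against 0.02 over all genes.

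Of 28 interferon and MHC class I genes 3 rose and none fell (median 0.12). *Ifit3*, an interferon-induced antiviral protein, had 7.74 to 13.6 FPKM (median 10.6) in 14-07w-JFJ and 5.35 to 7.38 FPKM (median 6.05) in 14-11w-ZH, without overlap (log2 fold change 0.73 ± 0.11, adjusted p 0.0075). *B2m*, the light chain of MHC class I, had 37.6 to 66.6 FPKM (median 57.03) in 14-07w-JFJ and 32.5 to 39.3 FPKM (median 34.3) in 14-11w-ZH (log2 fold change 0.62 ± 0.12, adjusted p 0.032). *Bst2*, the tetherin that holds budding virus at the cell surface, had 4.04 to 8.65 FPKM (median 6.53) in 14-07w-JFJ and 2.42 to 5.16 FPKM (median 3.37) in 14-11w-ZH (log2 fold change 0.83 ± 0.19, adjusted p 0.038). In *B2m* JFJ replicate 4 lay among the ZH mice. All 3 folds were smaller without the pigment-rich libraries, at 0.43, 0.24 and 0.55, and none passed there.

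The promoters of these 3 genes are shown because each holds the repeat of interferon-stimulated response elements, GAAA and again GAAA after any 2 bases (searched on both strands), printed in capitals, from RefSeq (GRCm38.p6), 250 bases before to 50 bases after the start and read on the gene's strand. In *Bst2* a pair of matches overlaps by 4 bases, and in *Ifit3* both matches lie on the opposite strand. Windows are chr19:34583279-34583578 (+) for *Ifit3*, chr2:122147437-122147736 (+) for *B2m* and chr8:71537423-71537722 (-) for *Bst2*. Of 32851 promoters of this length 3.44% hold the repeat. Counted by gene instead, with a match in any of its promoters, 10 of the 21 interferon genes with an entry hold it.
Ifit3: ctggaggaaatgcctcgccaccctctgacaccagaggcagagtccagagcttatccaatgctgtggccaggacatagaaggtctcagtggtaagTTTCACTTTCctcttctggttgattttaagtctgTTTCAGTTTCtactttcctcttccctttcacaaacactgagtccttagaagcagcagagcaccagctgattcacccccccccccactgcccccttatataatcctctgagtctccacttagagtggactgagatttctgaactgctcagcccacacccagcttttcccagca
B2m: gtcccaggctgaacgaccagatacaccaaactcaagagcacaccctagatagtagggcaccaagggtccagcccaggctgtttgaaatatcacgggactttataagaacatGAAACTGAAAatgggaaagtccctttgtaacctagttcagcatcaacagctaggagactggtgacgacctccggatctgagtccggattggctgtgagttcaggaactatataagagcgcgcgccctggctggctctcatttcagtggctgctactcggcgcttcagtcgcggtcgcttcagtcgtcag
Bst2: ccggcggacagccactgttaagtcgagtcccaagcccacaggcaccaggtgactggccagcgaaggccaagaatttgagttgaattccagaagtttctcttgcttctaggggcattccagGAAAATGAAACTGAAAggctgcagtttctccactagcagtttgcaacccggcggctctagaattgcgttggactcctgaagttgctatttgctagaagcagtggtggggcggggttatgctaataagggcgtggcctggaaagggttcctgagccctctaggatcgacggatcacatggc

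Of 24 clock genes 3 rose and none fell, and 20 had a positive fold (median 0.07 against 0.02 over all genes). Their mean log2(FPKM + 0.1) was 5.45 to 5.54 in 14-07w-JFJ libraries and 5.29 to 5.40 in 14-11w-ZH libraries, without overlap. *Per2*, a core repressor of the clock, had 13.3 to 16.2 FPKM (median 14.6) in 14-07w-JFJ and 8.96 to 9.98 FPKM (median 9.69) in 14-11w-ZH. Its log2 fold change was 0.60 ± 0.06 (adjusted p 1.1e-04) with all mice and 0.59 (adjusted p 0.01) without the pigment-rich libraries. *Ciart*, a repressor of CLOCK and BMAL1, had 20.2 to 29.6 FPKM (median 20.7) in 14-07w-JFJ and 13.7 to 17.9 FPKM (median 16.9) in 14-11w-ZH (log2 fold change 0.44 ± 0.09, adjusted p 0.03). *Usp2*, a clock-controlled deubiquitinase, had 76.2 to 109.5 FPKM (median 88.2) in 14-07w-JFJ and 64.9 to 72.8 FPKM (median 70.4) in 14-11w-ZH (log2 fold change 0.37 ± 0.07, adjusted p 0.017). All 6 JFJ mice exceeded all 6 ZH mice in each of the 3 genes. Without the pigment-rich libraries *Ciart* had 0.69 (adjusted p 0.015) and *Usp2* 0.22 (adjusted p 0.14). The hour of tissue collection was not given in the sources used here, and day length differed between the groups, so that its part in these values cannot be told apart.

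The *Ciart* promoter is shown for its 3 copies of CACGTG, the E-box that CLOCK and BMAL1 bind (a palindrome, in capitals). It covers chr3:95882179-95882478 (-) of GRCm38.p6 in RefSeq, and CACGTG occurs in 7.15% of all promoters of this length and not in the window of *Usp2*. Counted by gene, with a match in any of its promoters, 5 of 19 clock genes with an entry hold it.
Ciart: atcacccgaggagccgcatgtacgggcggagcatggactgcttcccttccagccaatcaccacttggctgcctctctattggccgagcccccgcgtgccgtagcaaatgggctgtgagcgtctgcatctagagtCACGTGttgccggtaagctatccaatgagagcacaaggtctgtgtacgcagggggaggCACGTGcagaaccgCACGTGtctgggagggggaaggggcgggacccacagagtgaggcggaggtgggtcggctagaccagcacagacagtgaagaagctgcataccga

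Targets of the glucocorticoid receptor, the receptor of the adrenal stress hormones, had the largest share of rising genes among the 41 lists examined. Of 20 genes, 7 passed upward and none downward, 19 had a positive fold (median 0.31), and 1 was called at 2-fold. Their summed level was 638 to 871 FPKM in 14-07w-JFJ and 611 to 637 FPKM in 14-11w-ZH. *Mt1*, a metallothionein, had 42.5 to 84.8 FPKM (median 70.5) in 14-07w-JFJ and 34.1 to 42.3 FPKM (median 37.5) in 14-11w-ZH (log2 fold change 0.82 ± 0.14, adjusted p 0.018), and its neighbour *Mt2* had 0.93 (adjusted p 0.026). *Tsc22d3*, the glucocorticoid-induced leucine zipper, had 27.2 to 32.9 FPKM (median 28.6) in 14-07w-JFJ and 23.3 to 24.9 FPKM (median 24.2) in 14-11w-ZH, without overlap (log2 fold change 0.26 ± 0.05, adjusted p 0.017). *Plin4*, a lipid droplet coat protein, was the called gene (1.20 ± 0.24, adjusted p 0.024). *Hif3a*, which is both a glucocorticoid target and a HIF subunit, had 2.56 to 4.303 FPKM (median 3.04) in 14-07w-JFJ and 1.58 to 2.21 FPKM (median 2.06) in 14-11w-ZH (log2 fold change 0.66 ± 0.13, adjusted p 0.024). The transcription factor *Klf9* rose by 0.25 (adjusted p 0.018) and the cell cycle inhibitor *Cdkn1a* by 0.65 (adjusted p 0.049). Of the 20 genes 7 followed *Rpe65* at a correlation of at least 0.5, among them *Mt1*, *Mt2*, *Plin4* and *Tsc22d3*, and the median was 0.23 without the pigment-rich libraries, where none of the 7 passed.

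HIF target genes were shifted a little as a list, and few passed singly. The mean log2(FPKM + 0.1) of the list was 5.07 to 5.36 in 14-07w-JFJ libraries and 4.88 to 5.09 in 14-11w-ZH libraries, with overlap. Of 54 HIF target genes 43 had a positive fold, with a median of 0.11, yet 1 passed upward and 1 downward. *Mxi1*, a MYC antagonist, had 18.01 to 20.7 FPKM (median 19.4) in 14-07w-JFJ and 14.5 to 16.9 FPKM (median 15.3) in 14-11w-ZH (log2 fold change 0.32 ± 0.05, adjusted p 0.012). *Tfrc*, the transferrin receptor that brings in iron, had 98.7 to 132 FPKM (median 116) in 14-07w-JFJ and 128 to 149 FPKM (median 141) in 14-11w-ZH (log2 fold change -0.28 ± 0.06, adjusted p 0.037). *Hif1a*, the oxygen-controlled subunit, had 244 to 295 FPKM (median 289) in 14-07w-JFJ and 308 to 329.6 FPKM (median 318) in 14-11w-ZH (log2 fold change -0.18 ± 0.04, adjusted p 0.048). *Slc25a37*, the mitochondrial iron importer of red cell precursors, had 19.2 to 21.1 FPKM (median 19.9) in 14-07w-JFJ and 15.9 to 17.7 FPKM (median 16.8) in 14-11w-ZH (log2 fold change 0.25 ± 0.05, adjusted p 0.017). The haemoglobin chain *Hbb-bs* had 53.6 to 255 FPKM (median 69.8) in 14-07w-JFJ and 29.1 to 49.2 FPKM (median 36.01) in 14-11w-ZH, with JFJ replicate 5 highest, and did not pass (adjusted p 0.14).

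Few genes of energy metabolism and protein synthesis passed. None of 74 nuclear genes of oxidative phosphorylation passed (median 0.02). Of 11 mitochondrially encoded genes *mt-Nd6*, the complex I subunit on the light strand, passed, with 20.9 to 35.7 FPKM (median 27.9) in 14-07w-JFJ and 33.5 to 56.2 FPKM (median 41.9) in 14-11w-ZH (log2 fold change -0.60 ± 0.13, adjusted p 0.045). Of 77 cytosolic ribosomal protein genes, *Rps28* (0.30), *Rps16* (0.18) and *Rps26* (0.17) passed, at adjusted p of 0.017, 0.032 and 0.045, and the list's median was 0.00. No immediate early gene passed, although 31 of 36 had a positive fold (median 0.26 against 0.02 over all genes). Among stress programmes, *Herpud1* of the unfolded protein response (0.23 ± 0.04, adjusted p 0.0069), the peroxiredoxin *Prdx6* (0.25 ± 0.05, adjusted p 0.032) and the small heat shock protein *Hspb1* (0.65 ± 0.15, adjusted p 0.039) each passed as the only member of their lists of 24, 26 and 23 genes. *Adamts1*, a protease of the matrix, was the only one of 22 metalloproteinase and inhibitor genes to pass (0.47 ± 0.09, adjusted p 0.018). None of 7 cold-inducible genes passed (median -0.11).

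Among the 40 called genes were near-identical copies of genes for ribosomal and mitochondrial proteins, of which 5 are described: *Gm10073*, *Gm9843*, *Gm11273*, *Rpl10-ps3* and *Rps27rt*. Over their aligned bases *Gm9843* and its parent *Fau* were identical at 402 of 402, *Rpl10-ps3* and *Rpl10* at 740 of 740 and *Rps27rt* and *Rps27* at 341 of 341, while *Gm11273* and *Cox5b* matched at 387 of 390 and *Gm10073* and *Rplp1* at 490 of 496. *Gm10073* had 12.9 to 27.8 FPKM (median 17.8) in 14-07w-JFJ and 5.16 to 10.8 FPKM (median 7.89) in 14-11w-ZH, without overlap (log2 fold change 1.34 ± 0.22, adjusted p 0.017). *Gm9843* had 12.9 to 24.4 FPKM (median 16.6) in 14-07w-JFJ and 6.11 to 9.36 FPKM (median 7.44) in 14-11w-ZH, also without overlap (log2 fold change 1.16 ± 0.15, adjusted p 0.0021). *Gm11273*, *Rpl10-ps3* and *Rps27rt* rose by 1.20, 1.09 and 1.07. These 5 parents did not pass, with log2 fold changes from -0.05 (*Rpl10*) to 0.13 (*Rplp1*). *Rplp1* had 609 to 769 FPKM (median 670.0) in 14-07w-JFJ and 555 to 696 FPKM (median 613) in 14-11w-ZH. A read from such a stretch can be assigned to either copy, so the values of the copies are uncertain.

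The folds of the 263 genes were recomputed without the 4 pigment-rich libraries, which leaves 2 JFJ mice against 6 ZH mice. All 263 kept their sign, 29 still passed, and 21 had less than 0.5 times their fold with all mice. The same 2 JFJ and 6 ZH mice were also in the fit that picked the 263 genes, so a kept sign is not an independent test. Of the 40 genes with a 2-fold change *Cyp2f2*, *Muc5ac* and *Gm9843* passed again. For *Muc5ac* the libraries left out included those with its lowest JFJ values. Those 2 JFJ mice also lack Y-linked transcripts, and the fit called all 4 Y-linked genes lower.

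**Figure D4:**
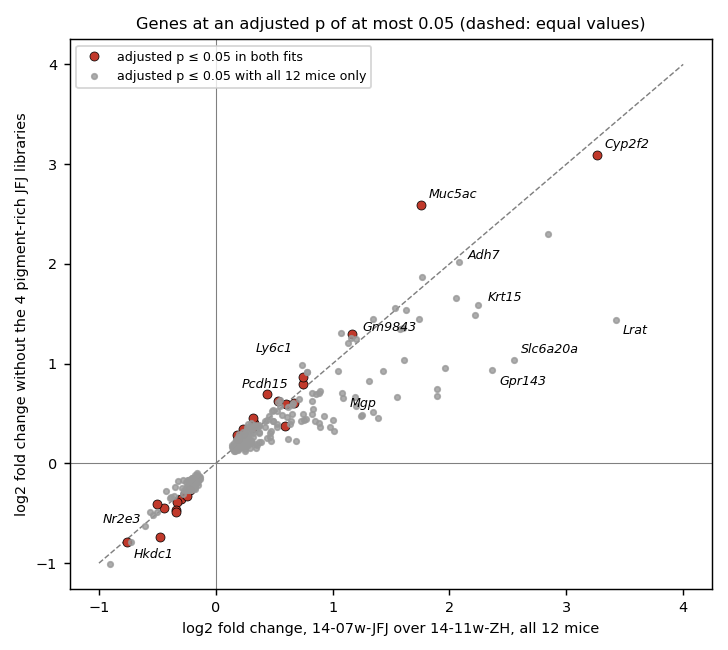
Log2 fold change of 14-07w-JFJ over 14-11w-ZH for the 263 genes at an adjusted p of at most 0.05, with all 12 mice on the horizontal axis and without the 4 pigment-rich JFJ libraries on the vertical axis, where the dashed line marks equal values and red points pass in both fits. Genes such as *Lrat*, *Slc6a20a* and *Gpr143* lie well below the line, while *Pcdh15*, *Nr2e3*, *Hkdc1* and *Cyp2f2* lie near it.

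The mice of the same pair of sites after 48 h (14-48h-JFJ over 14-48h-ZH) are separate animals at an early time. Both 48 h groups had the same length of exposure, unlike the chronic groups, and their libraries carry codes of separate series. A change between durations is the chronic log2 fold change minus that at 48 h, tested in 1 fit of the 4 groups. At 48 h 219 of 17076 genes (1.28%) were called, 212 of them higher (1.24%), and the median of all genes was 0.11. Of the 40 genes called in the chronic comparison 13 were called in the same direction at 48 h, which is 32.5% of the 40 and 5.94% of the 219. The change between durations passed for 26.5% of all genes at any fold, and surface and photoreceptor genes were among them. *Pcdh15* had -0.07 at 48 h (adjusted p 0.27), and the change of 0.81 between the durations passed (adjusted p 1.1e-08). *Gckr* had 0.43 at 48 h, a change of -0.93 (adjusted p 6.5e-06). *Krt15* had 0.07 and *Adh1* -0.04 at 48 h, with changes of 2.17 (adjusted p 0.0093) and 2.26 (adjusted p 0.0042). In FPKM, *Krt15* had 2.134 to 10.74 in 14-48h-JFJ, 1.986 to 7.093 in 14-48h-ZH and 0.9193 to 2.391 in Normoxia. *Adh1* had 0.9115 to 4.604, 0.8582 to 2.401 and 0.1928 to 0.7361 in the same order. Their small 48 h folds thus do not mean levels like those of Normoxia. The paper places *Krt15*, *Krt80* and *Alox12e* among genes raised early in normobaric hypoxia and no longer at 11 weeks. *Flt1* had -0.21 at 48 h against 0.27 after chronic exposure, and *Per2* 0.09 against 0.60, with changes of 0.48 (adjusted p 1.2e-05) and 0.52 (adjusted p 0.0043). *Arr3* had 0.72 at 48 h, and its change of -0.19 did not pass (adjusted p 0.17). The copies *Gm10073*, *Gm9843*, *Gm11273* and *Rpl10-ps3* had 4.75, 3.11, 4.07 and 2.58 at 48 h, where 14-48h-ZH was low: *Gm10073* had 6.23 to 11.1 FPKM in 14-48h-JFJ and 0 to 0.562 FPKM in 14-48h-ZH, beside 4.43 to 10.1 FPKM in Normoxia. With values at 0 such a fold depends on the pseudocount.

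Against Normoxia mice in Zurich air, 14-07w-JFJ retinas had 47 called genes of 16963 (0.277%) and 14-11w-ZH retinas 6 of 17071 (0.0351%), and at any fold 2.05% and 3.96% of genes passed. Both contrasts share the 6 Normoxia mice, whose libraries carry codes of the same series as those of 14-11w-ZH. *Pcdh15* had 0.65 in 14-07w-JFJ over Normoxia (adjusted p 5.7e-05) and -0.09 in 14-11w-ZH over Normoxia (adjusted p 0.41). *Nr2e3* had -0.53 (adjusted p 3.7e-05) and -0.09 (adjusted p 0.24) in the same order, and *Hkdc1* -0.81 (adjusted p 3.0e-04) and -0.04 (adjusted p 0.82). For these 3 genes the fold was past the test in the JFJ mice alone, which is not a test of a difference between the contrasts. *Ciart* passed in both, at 0.75 (adjusted p 6.7e-04) in 14-07w-JFJ and 0.31 (adjusted p 0.032) in 14-11w-ZH. *Usp2* and *Cdkn1a* stood the other way, with 0.04 and -0.09 in 14-07w-JFJ and -0.33 and -0.75 in 14-11w-ZH, where *Cdkn1a* passed (adjusted p 0.044). *Tfrc* had 0.08 in 14-07w-JFJ (adjusted p 0.62) and 0.37 in 14-11w-ZH (adjusted p 0.0062).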

How the data were processed

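Retinal RNA of 42 C57BL/6J mice in 7 groups of 6 had been sequenced in pairs on an Illumina NovaSeq. Per the submitters' processing notes and the study's methods the authors aligned reads with STAR (version not given in the sources used here) to GRCm38.p5, and they deposited, for each sample, gene values in FPKM and normalized counts (a signal scaled by 1 factor per library) for 25700 genes. All 84 columns of values were assigned to a sample by name, and the depth behind each FPKM value is known only through recovered reads. In the columns deposited by the authors as normalized counts, 100% of low values were whole multiples of 1 step within a tolerance of 0.1 in the 36 libraries whose reads were recovered, 11 of them among the 12 used here.

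The members and gene lists were chosen with earlier results of these data known. A gene was tested if at most 3 mice in each group had an FPKM of 0, the study's filter. limma 3.58.1 in R 4.3.3 (lmFit, then eBayes with trend and robust) was run on log2(FPKM + 0.1), so that folds of low genes are understated, and p-values were adjusted by Benjamini-Hochberg over all 17037 genes tested. Called genes had an adjusted p of at most 0.05 and a log2 fold change of at least 1 in size. Haemoglobins, crystallins, *Rpe65*, *Mlana* and *Pmel* (21 tested) were left out of counts afterwards, which leaves 17016. Correlation with *Rpe65* was taken on log10(FPKM + 1) over 42 mice. The 6 replicate numbers did not pair the mice, so no block was used. Genes named are at most 15 called genes, taken by size of increase, and any called decrease, with no overlap and a mean of at least 1 FPKM, the genes the study's text names here, up to 5 members per list by p, up to 5 genes by the change between durations, *Rpe65* and Y-linked genes as checks, and those said to be chosen after their values were seen. Copies were aligned with blastn 2.17.0 against GENCODE transcripts of GRCm38. Alternatives covered scaling, pseudocount, filters, covariates, edgeR 4.0.16 (quasi-likelihood, on recovered reads), the replicate block and single mice left out. Leaving out pigment-rich or lens-rich libraries was added after the data were seen. The test was also run on simulated libraries, for genes with a mean of at least 1 FPKM and with the same dispersion for every gene. Libraries uneven in admixed tissue or sex, as here, were not simulated.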

Additional observations from a re-analysis of the deposited data

Results flagged for a closer look

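Of 124 sets of 6 libraries examined, 13 held 1 value far from the other 5 by Dixon's criterion, and chance alone gives about 1 in 20. As mean log2(FPKM + 0.1) per list, JFJ replicate 5 stood apart for lens crystallins (5.955, the others -0.98 to -0.17), red blood cells (3.522, the others 2.16 to 2.65), reactive gliosis (2.435, the others 2.03 to 2.14), nuclear oxidative phosphorylation (6.785, the others 6.64 to 6.69) and cytosolic ribosomal proteins (7.505, the others 7.27 to 7.33). Mitochondrially encoded genes were high in JFJ replicate 3 (5.759, the others 5.30 to 5.45) and in ZH replicate 2 (5.749, the others 5.49 to 5.58). ZH replicate 3 was low for clock genes (5.286, the others 5.36 to 5.40) and high for interferon and MHC class I genes (2.318, the others 2.14 to 2.17). ZH replicate 6 was low for alcohol dehydrogenase and retinoic acid genes (1.526, the others 1.71 to 1.81). In FPKM, *Gm11273* was low in JFJ replicate 2 (5.528, the others 7.15 to 8.10), *Gm11808* was low in ZH replicate 6 (1.365, the others 2.22 to 2.95) and *Rps27rt* was high in JFJ replicate 6 (11.89, the others 7.31 to 8.44).

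The pressure contrast differed most, by p, between the durations in 5 genes. *Scand1* changed by -3.05 between durations (chronic -0.13, 48 h 2.92), *CAAA01147332.1* by -2.424 (chronic -0.31, 48 h 2.11), *Pcsk1n* by -1.755 (chronic -0.13, 48 h 1.63), *Crebzf* by -0.8776 (chronic -0.10, 48 h 0.78) and *Hnrnpa0* by -0.8426 (chronic -0.12, 48 h 0.72), each tested as an interaction in limma and passing. None of the 5 passed in the chronic contrast.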

How the results depend on the processing

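The 40 called genes became 0 with the *Rpe65* level as a term, 2 with the smooth muscle level, 84 with the Y-linked level, 85 with all 7 groups in 1 fit, 22 at a mean of at least 1 FPKM, 9 at a pseudocount of 1 and 10 without trend and robust, and, among settings chosen after the data were seen, 21 without lens-rich and 12 without pigment-rich libraries (3 of the 40 and 4 Y-linked genes among them). Among the 40 were 29 of the 84 with the Y-linked level and 34 of the 85 in the 7-group fit. So were 19 of the 22, 8 of the 9 and 15 of the 21 under the mean FPKM, pseudocount and lens settings. The 24 called genes apart from those following *Rpe65* became 0, 2, 44, 13, 8, 8 and 12 under the *Rpe65*, smooth muscle, 7-group, mean FPKM, pseudocount, no-trend and pigment settings, 11 at a limit of 0.3 and 1 with the correlation over the 12 mice alone. The 263 genes at any fold became 4, 28, 543, 51, 99 and 53 under the *Rpe65*, smooth muscle, 7-group, no-trend, lens and pigment settings, and 408 on normalized counts. Single mice left out gave 15 to 96, 11 to 37 and 78 to 420 genes. At a pseudocount of 1 the 48 h contrast had 74 calls, the change between durations 46, 14-07w-JFJ over Normoxia 13 and 14-11w-ZH over Normoxia 1. The causes were not tested.

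The replicate numbers did not pair the mice: same-numbered mice correlated at -0.63 to 0.46 over 13315 genes, and 2 of 6 correlated best with their own number. A replicate block gave 42, 18 and 126 genes for the 3 chronic counts and 15 calls for 14-11w-ZH over Normoxia. Of the 42, 25 were among the 40 genes called with no block, and 94 of the 126 were among the 263.

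Of the gene values under alternatives, 21 turned sign. *Lum*, *Dcn* and *Gpnmb* became -0.1958, -0.2047 and -0.4177 without pigment-rich libraries, *Lum*, *C2*, *Dcn*, *Gpnmb* and *Tagln* became -0.1911, -0.0386, -0.4073, -0.7281 and -0.1413 with the smooth muscle level as a term, and *Dcn* became -0.06267 with the *Rpe65* level. Values near 0 also turned: *Fau* became -0.06997 with the Y-linked level, -0.002846 without lens-rich libraries, -0.005281 on normalized counts and -0.005666 with median-of-ratios scaling, and *Vegfa* became 0.0184 with the Y-linked level. With single mice left out *Fau* ranged from -0.0117 to 0.05531, *Rps27* from -0.0497 to 0.00971 and *Vegfa* from -0.05924 to 0.006295.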

Other observations

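Further genes past the threshold at less than 2-fold were chosen after their values were seen. *Mertk*, the receptor with which the pigment epithelium takes up shed outer segments, had 2.625 to 3.104 FPKM in 14-07w-JFJ and 1.714 to 2.253 FPKM in 14-11w-ZH (log2 fold change 0.55 ± 0.10, SE, n = 6 each, limma adjusted p = 0.0180), and its correlation with *Rpe65* over the 42 mice was 0.66. *Mt3*, a metal-binding metallothionein of neural tissue, had 25.1 to 39.1 FPKM in 14-07w-JFJ and 18.8 to 24.9 FPKM in 14-11w-ZH (0.53 ± 0.10, adjusted p = 0.0175), with a correlation of 0.83. *Tgm2*, a protein cross-linking transglutaminase, had 4.42 to 6.32 FPKM in 14-07w-JFJ and 3.19 to 4.30 FPKM in 14-11w-ZH (0.55 ± 0.10, adjusted p = 0.0175), with a correlation of 0.38. *Hdc*, which makes histamine from histidine, had 17.2 to 30.6 FPKM in 14-07w-JFJ and 31.8 to 35.6 FPKM in 14-11w-ZH (-0.48 ± 0.10, adjusted p = 0.0381), and was -0.73 (adjusted p = 0.00731) without the pigment-rich JFJ libraries. Without those libraries the adjusted p was 0.140 for *Mertk*, 0.169 for *Mt3* and 0.0699 for *Tgm2*. The groups did not overlap for any of these 4 genes.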
